A study of Mus musculus with 33 samples.

Results

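The 24 hours between day 7 and day 8 of mouse embryonic stem (ES) cell differentiation were examined in the lines labelled WT and RepB. Of the 33 samples of the series, 12 were RNA libraries and 4 of these formed the comparison: WT day 7, RepB day 7, WT day 8 and RepB day 8, chosen by their labels alone. The features were all genes of the deposited table, 24391 in number, of which 12763 had enough counts to be tested. The other RNA libraries (days 0, 5, 6 and 10) were used to place this interval in the course, and the 21 ChIP and input samples were not analysed here.

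Both lines are hybrids of the CAST/Ei and 129/Sv/Jae strains, so many genes carry sequence differences that assign reads to the cas or the mus allele. WT is labelled wild type, and RepB is named after Repeat B of Xist, the long noncoding RNA that coats the X chromosome to be silenced. Repeat B is a tandem repeat known for the recruitment of Polycomb complexes. The labels do not describe the edit, name the allele that carries it or say whether the line is a single clone. Cells of both lines were grown on irradiated fibroblast feeders with LIF and serum, freed of feeders, cultured in suspension as embryoid bodies and plated on gelatin at day 4. Each line gave 1 library per day from polyadenylated RNA, with no replicate culture. The 2 lines are therefore the only replicates of the step from day 7 to day 8. P-values set the mean step against how far the steps of these lines differed, an estimate pooled largely over genes.

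As embryoid bodies differentiate, pluripotent cells pass through an epiblast-like state, and some then enter a state like the primitive streak, where brachyury (T) and Eomes are switched on. Streak cells give rise to mesoderm, which forms heart, vessels, primitive blood and connective tissue, and to definitive endoderm. The first red cells of the mouse embryo carry embryonic globins. The question here was which of these programmes rose and which fell within this single day, and whether both lines did so.

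Total counts were 11238856 (WT day 7), 4428785 (RepB day 7), 7763633 (WT day 8) and 3594551 (RepB day 8). Levels below are in CPM, a gene's count per 1000000 counts of those totals, and a gene with no count is bounded by 3 counts, from 0.267 CPM in WT day 7 to 0.835 CPM in RepB day 8. The WT day 8 library stood apart in relation to transcript length. Across the 12763 genes, Spearman's correlation of summed exon length with a gene's level relative to the 4 libraries was -0.532 in WT day 8, against 0.384 in WT day 7, 0.192 in RepB day 7 and 0.08 in RepB day 8. Correspondingly, the median log2 change in WT went from 0.40 in the shortest of 5 equal groups of genes (median 1215 bases) to -0.41 in the longest (median 6534 bases), whereas in RepB it went from -0.02 to -0.12. Results that involve mostly long or mostly short genes are given with these values in mind, and the counts for most lists are followed by those without each library in turn.

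**Figure D1:**
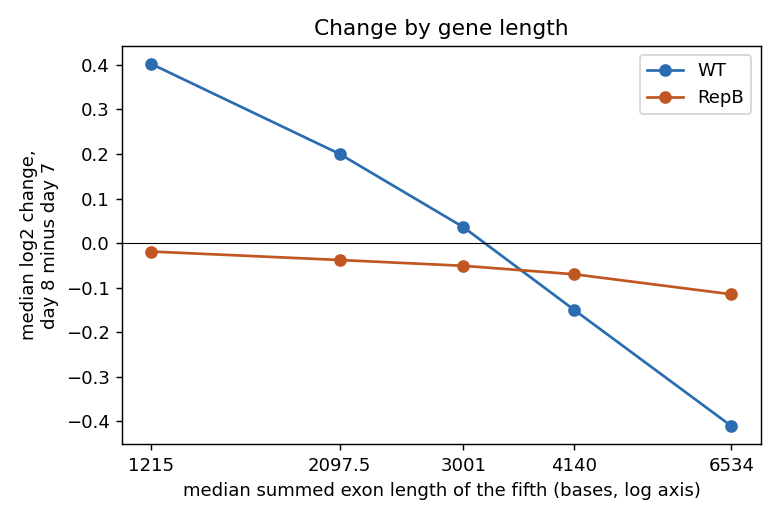
Median log2 change from day 7 to day 8 (vertical axis) against the median summed exon length in bases (horizontal log axis) for 5 equal groups of the 12763 tested genes, with 1 line of points per cell line. The WT points descend from 0.40 to -0.41 while the RepB points stay between -0.02 and -0.12.

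By edgeR's quasi-likelihood F test with line as block and Benjamini-Hochberg adjustment, 531 genes were higher at day 8 and 552 were lower at an adjusted p under 0.05. These are 4.16% and 4.33% of the genes tested, 8.49% together, and 2961 genes had an unadjusted p under 0.05. The shares differed by length: 5.32% higher and 1.21% lower in the shortest of the 5 groups, 3.56% and 10.5% in the longest. Of the calls, 346 were at least 2-fold higher and 332 at least 2-fold lower. The lines changed in the same direction for 65.7% of all genes tested and for 1082 of the 1083 calls. The test with line as block favours genes whose lines moved alike, so the second count is fixed largely by the test. The spread was pooled mostly over genes (1 residual and 13.9 prior degrees of freedom), so a call does not require steps of like size. Gata1, for example, was called with 3.03 to 3.86 CPM in WT and 3.84 to 26.99 CPM in RepB. The call with opposite directions was Six3, a forebrain transcription factor singled out after its values were seen: it had 94 and 186 counts in WT at days 7 and 8 but 1 and 0 in RepB. Both day 8 libraries lay above both day 7 libraries for 522 of the rises, and below for 542 of the falls. The same separation was common, 53.1% of all genes tested, with 3158 upward and 3619 downward. Over the 11503 better expressed genes the changes of the lines had a Pearson correlation of 0.57 and a Spearman correlation of 0.50. These are descriptions across genes, which are not independent replicates. The change was larger in RepB than in WT for 343 of the 531 rises and for 240 of the 552 falls. With 1 library per line and day, a difference between the lines' changes could not be tested.

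**Figure D2:**
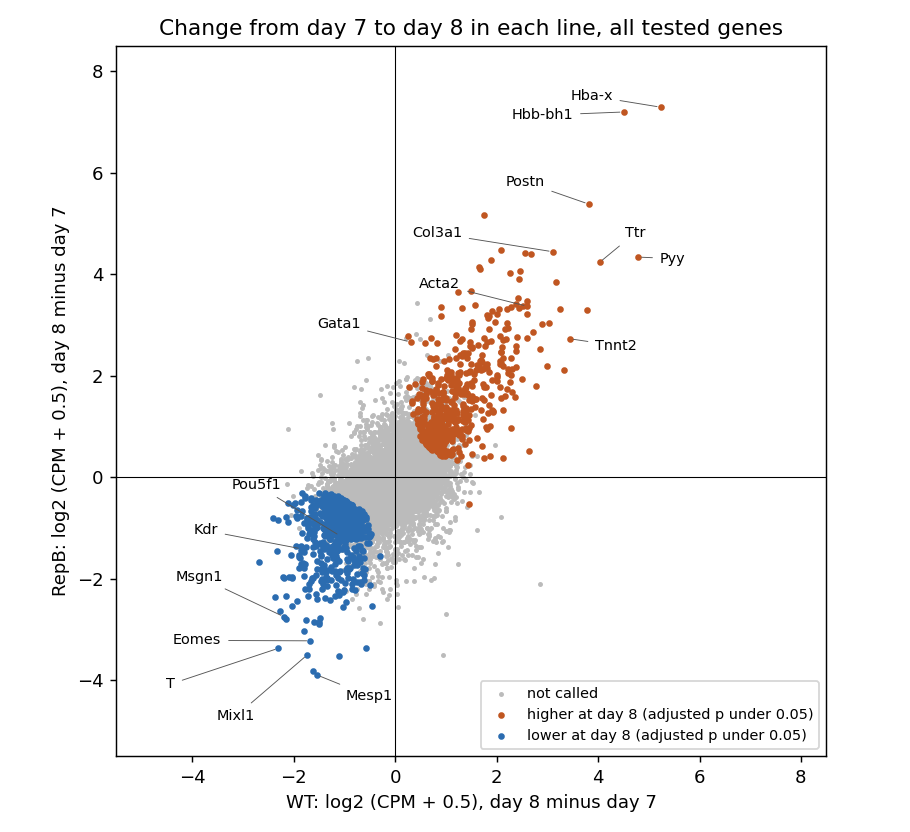
Change in RepB (vertical axis) against change in WT (horizontal axis), each the log2 difference of CPM + 0.5 between day 8 and day 7, for all tested genes. The 1083 called genes are drawn in colour and, as the test with line as block selects for, nearly all lie where the lines changed in the same direction (65.7% of all genes do), with the embryonic globins Hba-x and Hbb-bh1 at the upper right and T, Mixl1, Mesp1 and Eomes at the lower left.

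The calls depended on single libraries. When days 5, 6 and 10 were fitted together with these days, 10 libraries sharing an estimate of the spread, 939 genes were higher and 916 lower. Without WT day 7 these counts were 105 and 71, without RepB day 7 225 and 204, without WT day 8 923 and 531, and without RepB day 8 1693 and 1704. In each of these the lone library of a day was assumed to vary like the other groups. DESeq2 called 242 genes higher and 190 lower, and without the line block edgeR called 147 and 72. No call changed direction in any of the 14 alternatives. Of the 15 largest rises by the naming rule, 14 remained called by DESeq2 and 12 without the line block. Of the 15 largest falls, 13 and 6 did. Not all of these genes are described below.

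Genes of the primitive streak fell. Among 18 tested genes of a list for the streak and early mesoderm (19 in the table), 12 fell and 1 rose, with a median log2 change of -1.62, where the background was 4.33% lower and a median of 0.01 over all genes. T (brachyury, chromosome 17), the T-box factor of the streak and its mesoderm, measured 287 and 175 CPM in WT and RepB at day 7, and 57.7 and 16.4 CPM at day 8. Both day 8 values lay below both day 7 values. The log2 change was -2.77 (SE 0.25, adjusted p = 1.49e-05).

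Eomes, the T-box factor of anterior streak, mesendoderm and trophoblast, went from 385 and 342 CPM (WT, RepB) to 121 and 36.2 CPM, a log2 change of -2.38 (SE 0.29, adjusted p = 0.000175). Mixl1, a homeobox factor of mesendoderm, went from 136 and 96.6 CPM to 40.4 and 8.07 CPM, and the log2 change was -2.44 (SE 0.31, adjusted p = 0.000306). For both genes the groups did not overlap, and the day 8 level was lower in RepB than in WT. Mesp1, which marks the first cardiovascular mesoderm, had 40.8 and 44.3 CPM at day 7 and 13.7 and 2.504 CPM at day 8. Msgn1, a factor of presomitic mesoderm, was scarce, with 7.65 and 4.74 CPM and then 1.29 and 0.278 CPM, the last of these being a single count. Its log2 change of -2.84 (SE 0.49, adjusted p = 0.0023) was the largest fall by the naming rule.

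Lhx1, a LIM homeobox factor of anterior mesendoderm, fell from 132 and 76.8 CPM to 29.5 and 10.6 CPM (log2 change -2.43, SE 0.23, adjusted p = 2.84e-05). Goosecoid (Gsc), Evx1, Wnt3, the secreted antagonists Fst and Cer1, and the VEGF receptor Kdr were the other called falls of the list. The single rise was Hand1, a basic helix-loop-helix factor of lateral and extraembryonic mesoderm, from 469 and 672 CPM to 1002 and 1474 CPM (log2 change 1.13, SE 0.19, adjusted p = 0.00221). Foxc1, Mesp2, Pdgfra, Snai1 and Tbx6 did not pass the test. Over the course T, Eomes, Mixl1 and Mesp1 were highest at day 6 in both lines. T had 637 CPM in WT and 682 CPM in RepB at day 6, and 2.84 and 1.07 CPM at day 10. The fall between days 7 and 8 was therefore part of a longer decline. Other large falls outside the list were those of the ubiquitin ligase gene Trim67 (log2 change -2.42), the zinc finger factor Zic5 (-2.37), the vascular peptide Apln (-2.23), the lipoxygenase Alox15 (-2.20) and the cadherin Cdh4 (-2.18). DESeq2 called 8 of the 12 falls of the list, and without the line block 2 were called; with 10 libraries there were 9, and without WT day 7, RepB day 7, WT day 8 and RepB day 8 in turn 2, 5, 14 and 9. The call of Hand1 was lost without either day 7 library.

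The falling genes of the streak and Wnt lists include known targets of Wnt signalling through TCF/LEF factors, whose core recognition letters are TCAAAG. The promoter windows of 4 called genes of these lists are printed for this reason, in lower case with each match to TCAAAG or its reverse complement CTTTGA in capitals. They come from RefSeq on GRCm38.p6 and run 5′ to 3′ on the gene's strand, from 250 bases before to 50 bases after the start. T lies at chr17:8434173-8434472 (+ strand), Sp5 at chr2:70474673-70474972 (+), Msgn1 at chr12:11208899-11209198 (- strand) and Mesp1 at chr7:79793541-79793840 (-).
T: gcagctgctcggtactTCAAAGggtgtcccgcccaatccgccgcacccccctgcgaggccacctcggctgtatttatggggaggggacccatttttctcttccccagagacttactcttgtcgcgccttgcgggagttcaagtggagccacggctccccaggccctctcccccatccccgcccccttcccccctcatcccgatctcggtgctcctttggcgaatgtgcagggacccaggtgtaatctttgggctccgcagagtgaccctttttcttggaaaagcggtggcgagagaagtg
Sp5: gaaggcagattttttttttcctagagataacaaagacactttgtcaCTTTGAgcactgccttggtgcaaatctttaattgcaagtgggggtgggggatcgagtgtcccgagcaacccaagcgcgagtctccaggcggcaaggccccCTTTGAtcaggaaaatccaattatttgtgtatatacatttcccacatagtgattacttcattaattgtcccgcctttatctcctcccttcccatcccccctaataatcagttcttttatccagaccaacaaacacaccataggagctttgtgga
Msgn1: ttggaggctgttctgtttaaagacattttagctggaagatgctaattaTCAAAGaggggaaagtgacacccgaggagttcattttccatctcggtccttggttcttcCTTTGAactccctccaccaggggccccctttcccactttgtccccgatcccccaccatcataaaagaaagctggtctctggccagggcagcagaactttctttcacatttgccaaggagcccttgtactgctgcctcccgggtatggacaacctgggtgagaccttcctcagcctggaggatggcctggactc
Mesp1: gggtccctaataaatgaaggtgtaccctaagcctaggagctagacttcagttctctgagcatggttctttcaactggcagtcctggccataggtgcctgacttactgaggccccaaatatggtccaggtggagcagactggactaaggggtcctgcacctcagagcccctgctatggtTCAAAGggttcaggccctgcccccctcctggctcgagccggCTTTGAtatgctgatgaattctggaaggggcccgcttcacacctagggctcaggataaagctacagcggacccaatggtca
The match in T lies 234 bases before the start. Sp5 has matches 204 and 104 bases before it, Msgn1 202 and 143, and Mesp1 72 and 31. Of the 16 called streak and Wnt list genes with a promoter in the table (20 called), 5 held such a match, the other being Wnt5b. Over all members of both lists with a promoter it was 9 of 33, and 16% of all 32851 promoters held a match. Genes counted if any of their promoters matched, whereas the percentage is of single promoters, so the measures are unlike. A match is a description of letters and shows no binding.

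Genes of the epiblast and of pluripotency also fell, by smaller factors. Of 15 genes of formative and primed epiblast, 9 fell and none rose (median log2 change -1), where 4.33% of all tested genes were called lower. Of 14 core pluripotency genes 5 fell (median -0.65), and of 16 naive ones 4 fell (median -0.69). None of the 3 lists had a rise. Pou5f1 (Oct4), the factor needed for pluripotency, went from 277 and 331 CPM in WT and RepB to 130 and 148 CPM, with a log2 change of -1.11 (SE 0.19, adjusted p = 0.0023). Nanog, another core factor, went from 112 and 160 CPM to 63.9 and 89.6 CPM, with a log2 change of -0.81 (SE 0.19, adjusted p = 0.0175). The days did not overlap for either gene, and the fall was of like size in each line, 2.12-fold in WT and 2.23-fold in RepB for Pou5f1. Both calls were lost without WT day 7. At day 5 Pou5f1 had been at 1001 and 1194 CPM and Nanog at 354.5 and 498.5 CPM.

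Fgf5, the classic marker of primed epiblast, fell from 96.7 and 42.7 CPM to 35.3 and 10.3 CPM (log2 change -1.68, SE 0.23, adjusted p = 0.000458). Tdgf1, the Nodal co-receptor Cripto, fell from 142 and 134 CPM to 50.9 and 41.2 CPM (log2 change -1.57, SE 0.20, adjusted p = 0.000301). For each the 2 libraries of day 8 lay below those of day 7. Dnmt3b (a de novo DNA methyltransferase of the epiblast), Nodal, Lefty2, Otx2, Pou3f1, Zic2 and Etv5 fell as well, with log2 changes from -0.78 in Etv5 to -1.57 in Zic2. Among the core genes L1td1 and Utf1 fell too, while Sall4 (-0.64), Lin28a (0.17) and Trim28 (0.12) did not pass the test. Among the naive genes Esrrb, Klf5 and Nr5a2 fell together with Nanog. Epiblast calls numbered 0 without WT day 7, 6 without RepB day 7, 11 without WT day 8 and 8 without RepB day 8, and core calls 3, 4, 6 and 6. The naive count was the least steady, 9 with 10 libraries and 1, 2, 3 and 10 with these libraries left out in that order.

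Signalling genes were called mostly lower. In the Wnt list 9 of 26 tested genes fell and 1 rose (median log2 change -0.43), against 4.33% and 4.16% of all tested genes. The falls were the ligands Wnt3, Wnt5b and Wnt8a, the receptors Fzd5, Fzd7, Fzd10 and Lgr5, and the feedback targets Axin2 and Sp5. Axin2, a negative regulator switched on by the pathway itself, had 123 and 117 CPM in WT and RepB at day 7 and 53.3 and 61.5 CPM at day 8 (log2 change -1.05, SE 0.20, adjusted p = 0.00459). Sp5, a zinc finger factor downstream of Wnt, had 123 and 84.0 CPM and then 40.2 and 11.1 CPM (log2 change -2.13, SE 0.27, adjusted p = 0.000279). Neither gene's days overlapped. Fzd2, another receptor, was the rise (log2 change 0.67, SE 0.20, adjusted p = 0.0478). The Wnt calls are frail: DESeq2 called 3 falls and no rise, and the falls numbered 0, 1, 8 and 9 without WT day 7, RepB day 7, WT day 8 and RepB day 8.

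In the list of FGF ligands and ERK feedback genes 7 of 17 fell and none rose, against 4.33% of all tested genes lower. Fgf8, the streak ligand, had 151 and 121 CPM at day 7 and 84.6 and 29.8 CPM at day 8, with a log2 change of -1.36 (SE 0.25, adjusted p = 0.00331). Fgf10, a ligand of lateral mesoderm, fell from 117 and 108 CPM to 65.1 and 49.2 CPM. The inhibitors Dusp4, Spred2 and Spry4 and the factor Etv5, which the pathway is known to induce, fell by 0.65 to 0.95 on the log2 scale, while Dusp6 (-0.62) and Spry2 (0.56) did not pass. The FGF falls numbered 3 by DESeq2, and 0, 5, 9 and 8 with the libraries left out in the order above.

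Notch genes Notch1, Jag2, Dll3 and Nrarp fell and Hey2 rose, of 13 tested. The call of Notch1 did not hold once the length trend was removed. Over all tested genes, the background for the lists here, 4.16% rose and 4.33% fell. Dll3, a ligand-like protein of the presomitic mesoderm, went from 29.3 and 19.6 CPM to 10.1 and 2.23 CPM. Of 23 BMP and TGF-beta genes 5 rose and 3 fell. The rises were the pseudoreceptor Bambi, the inhibitory Smad6, the BMP target Id2 and the ligands Tgfb1 and Tgfb2, and the falls were Nodal, Lefty2 and Fst, which act in or against Nodal and activin signalling. Of 11 retinoic acid genes Rarb, Dhrs3 and Crabp2 rose, and Cyp26a1, the enzyme that degrades retinoic acid, fell from 104 and 97.8 CPM to 41.0 and 24.2 CPM (log2 change -1.63, SE 0.22, adjusted p = 0.000458). Crabp2 differed more between the lines than between the days, with 27.3 and 12.2 CPM at day 7 and 52.8 and 18.1 CPM at day 8. The call of Crabp2 did not hold once the length trend was removed. Without WT day 7, RepB day 7, WT day 8 and RepB day 8 the Notch falls numbered 1, 1, 4 and 6, the BMP and TGF-beta rises 1, 3, 5 and 10 and their falls 0, 2, 3 and 2, and the retinoic acid rises 0, 2, 1 and 4. DESeq2 called none of the retinoic acid rises.

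Heart genes rose. Of 14 tested cardiac transcription factors 10 rose and none fell, with a median log2 change of 1.07, against 4.16% of all genes. Scarce members could pass the count filter through day 8 alone. Nkx2-5, the homeobox factor of cardiac precursors, was at 2.31 and 2.71 CPM in WT and RepB at day 7 and at 21.8 and 14.2 CPM at day 8. Hand2 went from 45.4 and 44.9 CPM to 194 and 214 CPM, and Mef2c, which with Nkx2-5 and Gata factors drives muscle genes, from 0.712 and 0.226 CPM to 10.4 and 10.0 CPM. In all 3 genes the days were well apart and the lines close together at day 8. The log2 changes were 2.91 (SE 0.34, adjusted p = 0.000143) for Nkx2-5, 2.19 (SE 0.20, adjusted p = 1.84e-05) for Hand2 and 4.18 (SE 0.47, adjusted p = 0.000107) for Mef2c. Gata5, Gata6, Irx4, Isl1, Smyd1 and Tbx2 rose too, whereas Gata4 (-0.22), Tbx3 (-0.61), Tbx5 (0.47) and Tbx20 (0.65) did not pass the test.

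Some contractile genes of heart muscle rose as well. Of 15 tested sarcomere genes (23 in the table) 5 rose: the troponins Tnnt2, Tnni1 and Tnnc1 and the myosin heavy chains Myh6 and Myh7. Over all tested genes 4.16% rose, and here too scarce members could pass the count filter through day 8 alone. Tnnt2, cardiac troponin T, had 1.16 and 1.13 CPM at day 7 and 17.5 and 10.3 CPM at day 8 (log2 change 3.67, SE 0.39, adjusted p = 6.22e-05). Myh7, the slow heavy chain, had 6.94 and 5.42 CPM and then 31.8 and 7.23 CPM, so its rise lay mostly in WT. So did that of Myh6, from 1.34 and 1.13 CPM to 6.18 and 1.67 CPM. The Myh6 call was lost in 6 of 12 alternatives, among them DESeq2 and the 10 libraries. Actc1, another heart muscle marker, had 6.05 and 5.42 CPM and then 9.53 and 5.29 CPM and was not called. Popdc2, a membrane protein of heart and skeletal muscle, went from 0.267 and 0.452 CPM to 10.1 and 8.90 CPM (log2 change 4.83, SE 0.51, adjusted p = 6.22e-05). Among 8 members under the count filter were Myl2, Nppa, Nppb and Pln, genes of more mature or atrial muscle. The sarcomere rises numbered 2 by DESeq2 and 2 without WT day 8, and the factors 7 by DESeq2 and 3, 6, 10 and 9 without WT day 7, RepB day 7, WT day 8 and RepB day 8. Sarcomere rises without the other 3 libraries were 2 (WT day 7), 5 (RepB day 7) and 8 (RepB day 8).

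Smooth muscle and contractile genes rose, 6 of 12 tested and none lower, against 4.16% of all tested genes higher. Acta2, smooth muscle actin, which is also made by early heart muscle and activated fibroblasts, went from 66.0 and 92.4 CPM in WT and RepB to 405 and 958 CPM, a log2 change of 3.01 (SE 0.24, adjusted p = 3.21e-06). The groups were far apart, and the rise was 6.14-fold in WT and 10.4-fold in RepB. Cald1, Cnn2, Csrp1, Des and Myl9 rose by 0.74 to 0.94 on the log2 scale, while Tagln (0.38), Tpm1 (0.44) and Tpm2 (0.50) did not pass. Myh11, a defining gene of mature smooth muscle, had no more than 8 counts in any of the 4 libraries. DESeq2 called 4 of the 6, and without WT day 7, RepB day 7, WT day 8 and RepB day 8 the counts were 2, 5, 6 and 8.

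Serum response factor is known to bind the CArG box in promoters of contractile genes, so the called contractile genes with a match are shown in the same form, Myl9 at chr2:156775214-156775513 (+) and Cnn2 at chr10:79988350-79988649 (+), with the CArG box in capitals.
Myl9: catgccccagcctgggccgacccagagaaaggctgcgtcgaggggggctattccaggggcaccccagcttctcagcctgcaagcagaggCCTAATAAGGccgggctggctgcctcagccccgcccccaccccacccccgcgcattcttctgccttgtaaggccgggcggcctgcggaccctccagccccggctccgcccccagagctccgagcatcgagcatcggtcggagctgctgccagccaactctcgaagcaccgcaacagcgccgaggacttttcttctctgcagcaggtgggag
Cnn2: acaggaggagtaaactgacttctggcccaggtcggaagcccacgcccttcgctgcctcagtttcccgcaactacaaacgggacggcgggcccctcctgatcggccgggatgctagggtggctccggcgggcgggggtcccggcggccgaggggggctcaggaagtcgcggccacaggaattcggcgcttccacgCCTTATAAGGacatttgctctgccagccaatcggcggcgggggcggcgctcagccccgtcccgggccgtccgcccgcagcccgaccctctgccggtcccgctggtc
The match starts 161 bases before the start in Myl9, a myosin regulatory light chain, and 56 bases before it in Cnn2, a calponin that binds actin. These were 2 of the 11 called heart and smooth muscle genes with a promoter. Over both lists 6 of 33 members with a promoter had one, against 1.63% of all promoters. A member counted if any of its promoters matched, whereas the percentage is of single promoters, so the measures are unlike. The called genes without a match in this window, such as Acta2 and Tnnt2, only lack these letters within 250 bases of the start.

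Collagens and other fibrillar matrix genes rose while fibronectin fell. Of 18 tested matrix genes (21 in the table), 10 rose and 1 fell (median log2 change 0.90), against 4.16% and 4.33% of all tested genes. Postn (periostin), a matrix protein of heart cushions and connective tissue, went from 3.92 and 7.23 CPM in WT and RepB to 61.6 and 322 CPM, a log2 change of 4.73 (SE 0.32, adjusted p = 6.14e-07). Col3a1, the collagen III chain, went from 4.09 and 6.32 CPM to 39.0 and 148 CPM (log2 change 3.88, SE 0.30, adjusted p = 3.21e-06), and Col1a2 from 34.9 and 31.8 CPM to 195 and 544 CPM. In each of these the days were apart, and RepB day 8 was the highest library. Col1a1, Col5a2, Col6a1, Col11a1, Fbn1, Lum and Sparc were the other rises. A scarce gene such as Lum could pass the count filter through day 8 alone. Fn1 (fibronectin), a long gene, went from 6046 and 5459 CPM to 2186 and 3296 CPM (log2 change -1.08, SE 0.23, adjusted p = 0.00806), and had been at 885 and 817 CPM at day 5 and was at 5209 and 6065 CPM at day 10. Matrix rises numbered 5 by DESeq2, and 4, 5, 13 and 8 without WT day 7, RepB day 7, WT day 8 and RepB day 8. The fall of Fn1 was called in every one of these but the fit without WT day 7.

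Mesenchymal factors and enzymes rose with the matrix. Of 15 genes tested, Snai2, Twist2, Prrx2, Mmp2, Tgfbi and Vim rose and none fell. Over all tested genes 4.16% rose and 4.33% fell. Snai2 (Slug), a repressor of epithelial genes, had 10.9 and 9.94 CPM at day 7 and 61.3 and 104 CPM at day 8 (log2 change 2.91, SE 0.26, adjusted p = 1.49e-05). Its relative Snai1, which acts earlier in the streak, went the other way without passing the test (72.4 and 69.6 CPM, then 60.7 and 43.7 CPM, adjusted p = 0.22). Cdh1 (E-cadherin), the adhesion protein of epithelia and ES cells, was the only called member of 12 epithelial genes and fell from 574 and 560 CPM to 257 and 325 CPM (log2 change -0.96, SE 0.20, adjusted p = 0.00796). Of 13 basement membrane genes Lama1, Lama4 and Sparc rose, and the long gene Lama5 fell, a call that did not hold once the length trend was removed. Mesenchymal rises were 3, 4, 10 and 8 with WT day 7, RepB day 7, WT day 8 and RepB day 8 left out, and the basement membrane rises 1, 1, 6 and 2. Cdh1 lost its call without WT day 7.

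Since the cultures began on fibroblast feeders, markers of embryo fibroblasts were measured beside the matrix genes. Of 16 such genes 8 had enough counts, and 6 of these rose, against 4.16% of all tested genes. A scarce member such as Lum, with 3 and 1 counts at day 7 and 13 and 18 at day 8, could pass the count filter through day 8 alone. The rises were Pdgfrb and 5 genes also in the matrix or mesenchyme lists (Col1a1, Col1a2, Lum, Postn, Twist2). The summed level of the list was 563 and 742 CPM in WT and RepB at day 7 and 1370 and 2820 CPM at day 8. Among the members too scarce to test, Fap, Dpt and Il6 were at 0 counts in all 4 libraries and Mmp3 had at most 2. Dcn, Cd34 and Pi16 were higher in CPM at day 8 in both lines, on at most 16 counts, and S100a4 was lower in both. Thy1 was at 10.4 and 15.4 CPM at day 7 and 6.18 and 12.2 CPM at day 8 and was not called. Ccl2, at 0.979 and 0.677 CPM and then 2.06 and 1.95 CPM, was not called either. At day 0, on feeders, Col3a1 was at 88.2 and 98.5 CPM, and at day 5 at 3.66 and 3.02 CPM. In such bulk samples more cells of a type and more RNA per cell cannot be told apart.

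Embryonic globins were among the largest rises, and Hba-x and Hbb-bh1 were the largest among genes with a mean log2 CPM of at least 2. The embryonic alpha-like globin Hba-x (chromosome 11) went from 0.890 CPM in WT and 2.03 CPM in RepB at day 7 to 51.8 and 397 CPM at day 8. Day 8 was far above day 7 in both lines, and the rise was 58.2-fold in WT and 195-fold in RepB. Hbb-bh1, an embryonic beta-like globin on chromosome 7, had 1.07 and 1.36 CPM and then 35.0 and 272 CPM. Hbb-y, its embryonic neighbour, rested on 1 and 3 counts at day 7 and had 2.96 and 24.8 CPM at day 8. The fitted log2 changes were 6.85 (SE 0.35, adjusted p = 7.54e-08) for Hba-x, 6.34 (SE 0.41, adjusted p = 6.14e-07) for Hbb-bh1 and 5.09 (SE 0.52, adjusted p = 5.09e-05) for Hbb-y. The globin genes resemble one another, so the authors' counting could have split reads among them.

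Of 14 tested blood genes (20 in the table) 9 rose and 1 fell, against 4.16% and 4.33% of all tested genes. Scarce members could pass the count filter through day 8 alone, so the count of rises partly follows from the filter. Besides the globins the rises included Alas2, the first enzyme of erythroid haem synthesis, and the factors Gata1, Gata2, Klf1 and Nfe2. Gata1, the master factor of red cells, rose mostly in RepB, from 3.84 to 26.99 CPM, against 3.03 to 3.86 CPM in WT. Klf1, which activates globin genes, had 0.623 and 1.13 CPM in WT and RepB at day 7 and 2.83 and 16.7 CPM at day 8, and Alas2 went from 0.712 and 0.677 CPM to 3.35 and 19.8 CPM. In all 3 the day 8 value of RepB stood well above the rest. Myb, a factor of definitive blood progenitors, fell (12.4 and 16.03 CPM, then 5.28 and 9.46 CPM, adjusted p = 0.0494), a call lost in 7 of 14 alternatives, among them DESeq2, the 10 libraries and the fits without WT day 7, RepB day 7 or WT day 8. Tal1 and Runx1, which act upstream in blood formation, were not called, and Ptprc (CD45), a defining marker of white cells, had at most 1 count in any library. The rises numbered 7 by DESeq2 and 2 without the line block, and 3, 3, 11 and 7 without WT day 7, RepB day 7, WT day 8 and RepB day 8. Without either day 7 library Gata1, Klf1 and Alas2 lost their calls, Gata1 also by DESeq2 and without RepB day 8, while Hba-x and Hbb-bh1 were called in each of 13 alternatives.

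Vessel genes split in direction. Kdr (chromosome 5), the VEGF receptor of mesoderm that forms blood and vessels, fell from 215 and 231 CPM in WT and RepB to 59.8 and 86.5 CPM (log2 change -1.62, SE 0.20, adjusted p = 0.000292), a call held in every alternative. The endothelial receptors Tek and Tie1, the adhesion protein Cdh5, the secreted Egfl7 and the factor Sox18 rose. Of 15 tested genes 5 thus rose and 1 fell, against 4.16% and 4.33% of all tested genes. Scarce members could pass the count filter through day 8 alone. Tek had 4.45 and 5.65 CPM at day 7 and 10.7 and 34.8 CPM at day 8 (log2 change 1.92, SE 0.34, adjusted p = 0.00287). Cdh5 (VE-cadherin) went from 3.56 and 7.45 CPM to 5.93 and 32.0 CPM, so the WT day 8 value lay below that of RepB day 7. Pecam1 (0.68), Flt1 (-0.44) and Eng (-0.15) did not pass the test. DESeq2 called 2 of the 5 rises and the fit without the line block none; the counts were 0, 1, 7 and 4 without WT day 7, RepB day 7, WT day 8 and RepB day 8.

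**Figure D3:**
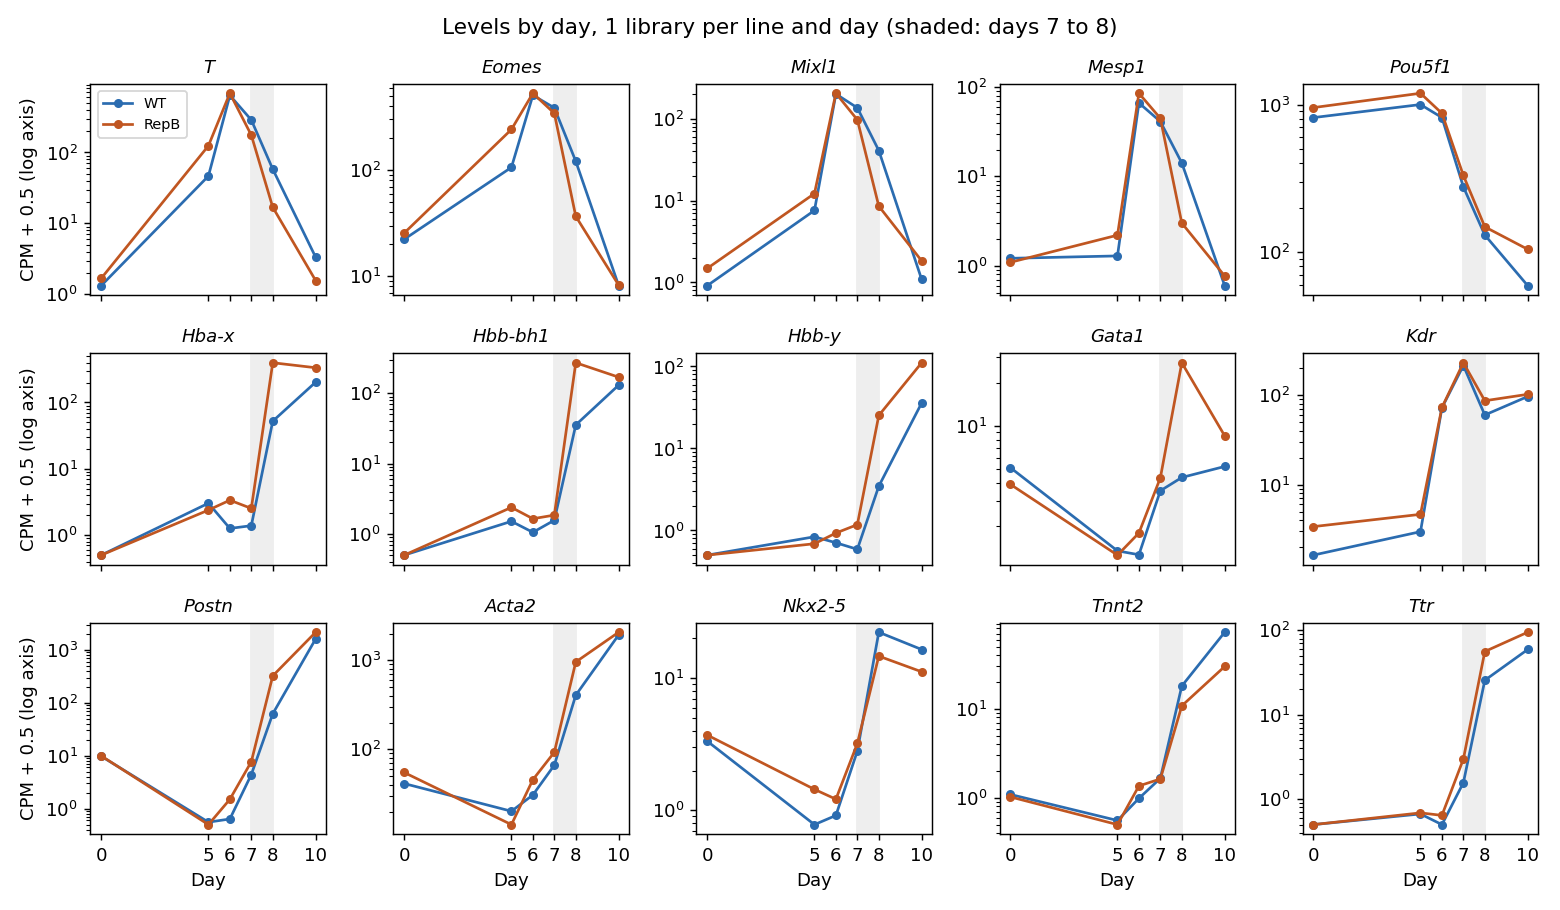
Levels (CPM + 0.5, log axes) of 15 genes against day of differentiation, 1 library per line and day, with the step from day 7 to day 8 shaded. T, Eomes, Mixl1 and Mesp1 peak at day 6 and descend through the shaded step, Kdr peaks at day 7, and the globins, Postn, Acta2, Nkx2-5, Tnnt2 and Ttr climb within it.

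Secreted carriers of yolk sac endoderm and liver appeared. Ttr, the thyroid hormone carrier transthyretin, went from 1.07 and 2.48 CPM in WT and RepB to 25.1 and 55.6 CPM, a log2 change of 4.52 (SE 0.31, adjusted p = 6.14e-07). The rise was of like size in both lines, 23.5-fold and 22.4-fold. Rbp4, the retinol carrier, had 2.40 and 1.81 CPM and then 10.4 and 21.7 CPM (log2 change 2.69, SE 0.38, adjusted p = 0.000594). Afp had no count at day 7 and 1.80 and 4.45 CPM at day 8, at least 6.76-fold higher in WT and at least 6.57-fold higher in RepB, taking 3 counts per library as the bound. Apoa1 and Fgb rose as well. Apob, a lipoprotein component, was also called, but its days overlapped (2.31 and 4.74 CPM, then 2.83 and 35.3 CPM), and the call was lost in 6 of 14 alternatives, among them DESeq2, the 10 libraries and the fit without RepB day 8. The endocytic receptor Lrp2, a long gene, fell from 406 and 242 CPM to 161 and 151 CPM (log2 change -0.996, SE 0.21, adjusted p = 0.00933). That makes 6 rises and 1 fall of 9 tested genes, against 4.16% and 4.33% of all tested genes. The median log2 change was 2.69, also with Afp at its bound. The other 13 of 22 members, among them Alb, Trf and Apoa2, had too few counts, so those tested passed largely through day 8. The rises numbered 4 by DESeq2 and 2, 4, 7 and 5 without WT day 7, RepB day 7, WT day 8 and RepB day 8. Lrp2 was not called without WT day 7, RepB day 7 or WT day 8.

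Endoderm factors moved less, read here against 4.16% of all tested genes called higher. Of 12 tested, Gata6, Cdx2 and Dab2 rose, all of which serve other tissues too, while Foxa2 (19.8 and 9.94 CPM, then 19.96 and 26.2 CPM) and Sox17 (33.8 and 27.6 CPM, then 24.9 and 27.8 CPM) did not pass the test. These 3 calls numbered 0 without WT day 7 and 1 without RepB day 7, and 5 without WT day 8. Pyy, the gut hormone peptide YY, had 0.801 and 1.36 CPM at day 7 and 35.4 and 37.0 CPM at day 8 (log2 change 5.17, SE 0.34, adjusted p = 6.14e-07). The 2 lines were nearly equal at day 8, and by day 10 Pyy was at 8.63 and 8.28 CPM. Pitx1, a homeobox factor of hindlimb and oral ectoderm, rose from 6.41 and 13.6 CPM to 65.1 and 140 CPM (log2 change 3.37, SE 0.23, adjusted p = 6.14e-07).

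Hox genes, which specify position along the body axis, rose together. Of 22 tested (35 in the table) 15 rose and none fell, against 4.16% of all tested genes higher, with a median log2 change of 2.10. For 20 of the 22 both day 8 libraries lay above both day 7 libraries, as for 3158 of all 12763 genes tested. Levels were low. Hoxc8, a thoracic gene, had 0.712 and 1.13 CPM in WT and RepB at day 7 and 8.501 and 12.8 CPM at day 8 (log2 change 3.53, SE 0.41, adjusted p = 0.000145), and Hoxb4 had 1.51 and 2.48 CPM and then 10.95 and 10.9 CPM (log2 change 2.55, SE 0.37, adjusted p = 0.000703). Hoxd9 had 7.21 and 8.13 CPM and then 27.2 and 22.5 CPM. The lines were close in each of these, and the called genes came from all 4 clusters: Hoxa9; Hoxb2, Hoxb4, Hoxb5, Hoxb6 and Hoxb8; Hoxc6, Hoxc8, Hoxc9 and Hoxc10; and Hoxd3, Hoxd4, Hoxd8, Hoxd9 and Hoxd10.

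The anterior gene Hoxb1 went the other way by value, without passing the test. It went from 11.6 and 9.26 CPM to 6.96 and 2.23 CPM (log2 change -1.15, adjusted p = 0.0558). Hoxd1 was higher by value (0.61) and did not pass the test either. The other 13 members, including Hoxd11, Hoxd12 and Hoxd13, had too few counts to test, and scarce members could pass the filter through day 8 alone. DESeq2 called 6 of the 15 rises, and the counts without WT day 7, RepB day 7, WT day 8 and RepB day 8 were 0, 4, 11 and 14.

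Imprinted genes are read from a single parental copy, and many of them promote or restrain fetal growth. Of 20 tested 10 rose and 1 fell, against 4.16% and 4.33% of all tested genes. The H19 RNA went from 2349 and 3717 CPM in WT and RepB to 6209 and 9613 CPM (log2 change 1.41, SE 0.20, adjusted p = 0.000605). Its neighbour Igf2, a growth factor, went from 166 and 172 CPM to 323 and 596 CPM (log2 change 1.39, SE 0.23, adjusted p = 0.00163). Dlk1 had 8.63 and 5.42 CPM and then 38.0 and 40.1 CPM, and Meg3 of the same locus 1015 and 861 CPM and then 1930 and 1779 CPM. In each of the 4 genes the days did not overlap. Mest, Mirg, Ndn, Nnat, Plagl1 and Sgce were the other rises, and Plagl1, a zinc finger factor, differed between lines at day 8 (56.3 CPM in WT, 240 CPM in RepB).

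Igf2r, the receptor that clears Igf2 and a long gene, fell from 118.8 and 106.6 CPM to 49.5 and 67.9 CPM (log2 change -0.95, SE 0.22, adjusted p = 0.0134). Peg3 and Peg10, abundant and also imprinted, had log2 changes of -0.63 and -0.23 that did not pass. Mest, Ndn and Dlk1 were called in every alternative. DESeq2 called 8 of the rises, and the counts without WT day 7, RepB day 7, WT day 8 and RepB day 8 were 7, 5, 11 and 10. The fall of Igf2r was lost without WT day 7 and without RepB day 7.

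Lists of general cell functions had calls in both directions, read here against 8.49% of all genes called. Of 26 cell cycle and replication genes Ccnd2 and Ccnd3, the D-type cyclins, rose and Ccne1 fell. Of 32 cytosolic ribosomal protein genes Rpl3 and Rpl6 rose and Rpl37 fell. Their median log2 change was 0.65 in WT and 0.01 in RepB. These are short genes with many near-identical copies in the genome, so these calls are uncertain. With the length trend removed, 3 of them were called higher and 5 lower, and the cause was not tested. In fits without RepB day 8, the WT library with the length relation alone stands for day 8. Without RepB day 8, 18 of the 32 were called higher. Of 16 glycolysis genes the glucose transporter Slc2a1 rose (1571 and 1637 CPM, then 2338 and 2892 CPM). In lists of p53 targets (16 tested), hypoxia targets (13) and respiratory chain genes (19) edgeR called 0, as did DESeq2. With the length trend removed the respiratory chain calls stayed at 0. In that fit 1 p53 target was higher and 2 lower, and 3 hypoxia targets were higher and 1 lower. Without RepB day 8, 11 respiratory chain genes, 4 p53 targets and 3 hypoxia targets were called higher and 2 p53 targets lower; without WT day 8, 3 hypoxia targets were higher and 2 p53 targets lower. Of 28 Polycomb genes Pcgf5 and Rbbp7 rose and Cbx7, Kdm2b and Phc1 fell. Phc1, a subunit of Polycomb complex 1 found in ES cells, went from 520 and 450 CPM to 212 and 276 CPM (log2 change -0.98, SE 0.21, adjusted p = 0.00909), while Ezh2 was at 0.22. Without WT day 7, RepB day 7, WT day 8 and RepB day 8 the Polycomb rises numbered 0, 1, 4 and 3 and the falls 0, 1, 3 and 6; DESeq2 called 0 and 1. The cell cycle rises numbered 1, 1, 2 and 5 and the falls 0, 0, 2 and 3.

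The remaining lists held 1 to 5 calls each in small sets, with 8.49% of all genes called. Of 12 early neural genes Map2, Ncan, Nes and Otx2 fell and none rose; Nes (nestin) went from 124 and 108 CPM to 61.7 and 57.9 CPM (log2 change -0.94, SE 0.20, adjusted p = 0.00831). Sox1, a defining neural marker, was at 16.1 and 16.9 CPM in WT but at 1.13 and 0.278 CPM in RepB. The neuron marker Tubb3 went the other way by value, from 27.7 and 30.3 CPM in WT and RepB to 35.6 and 51.7 CPM, and was not called. Of 11 neural crest genes Snai2 and Ednrb rose. Of 10 trophoblast genes Cdx2, Hand1 and Plac1 rose and Eomes and Tfap2c fell; Plac1, on the X chromosome and known from placenta, went from 1.78 and 4.52 CPM to 11.3 and 22.0 CPM (log2 change 2.49, SE 0.32, adjusted p = 0.000307). Among 17 immediate early genes Nr4a1 fell, and among 7 germline genes tested Prdm1 did. Without WT day 7, RepB day 7, WT day 8 and RepB day 8 the neural falls numbered 1, 3, 4 and 4, the neural crest rises 1, 1, 2 and 3, the trophoblast rises 1, 2, 3 and 5 and the trophoblast falls 0, 0, 1 and 2. The fall of Nr4a1 was lost without either day 7 library, and that of Prdm1 without WT day 7.

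**Figure D4:**
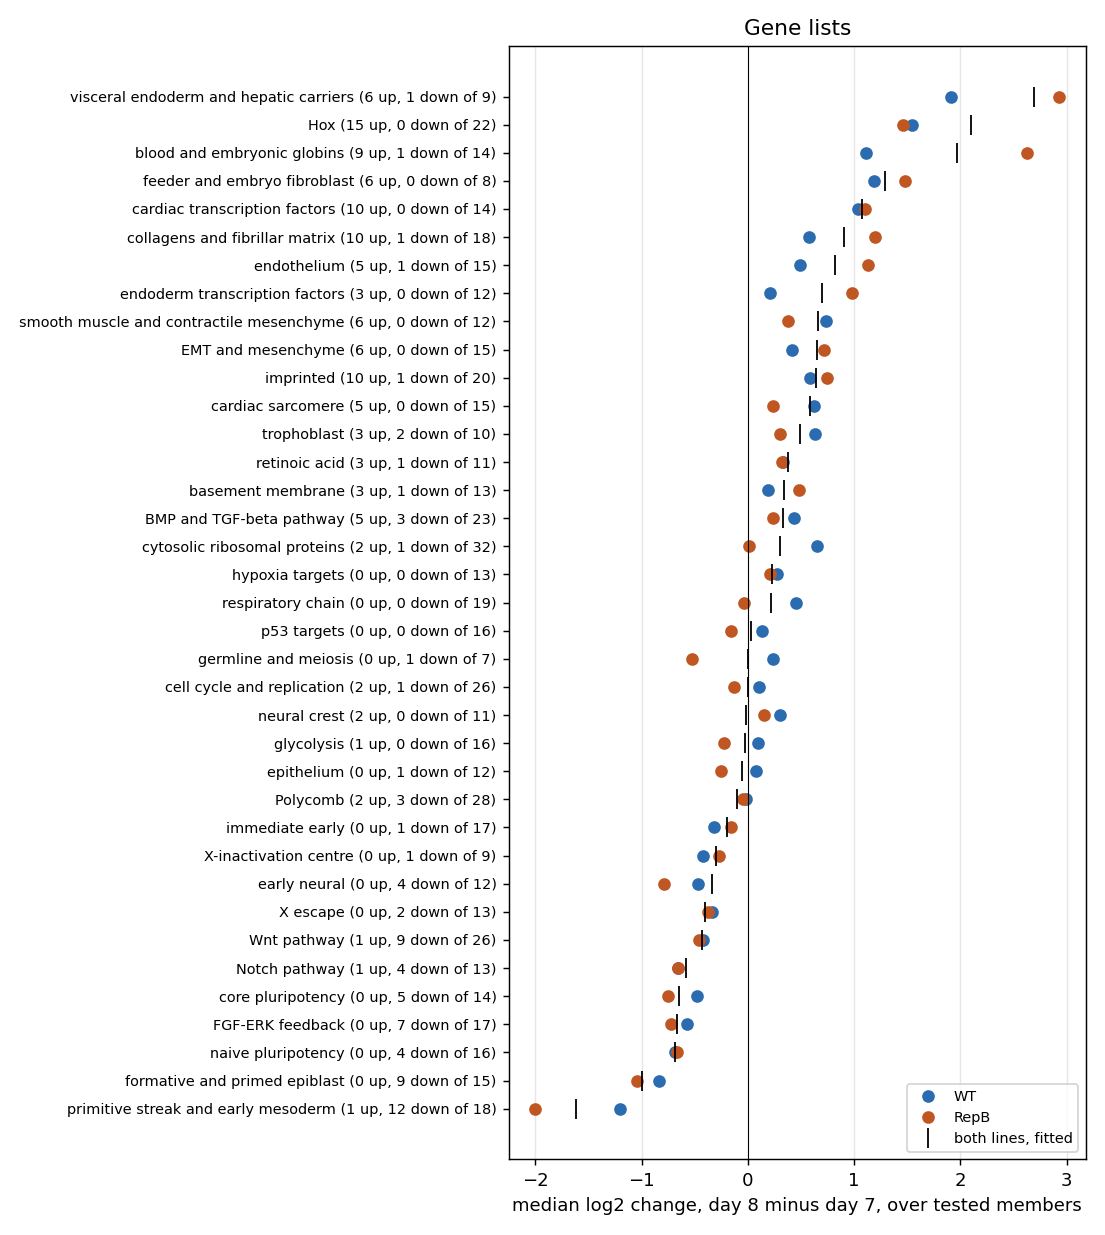
Median log2 change from day 7 to day 8 (horizontal axis) of each gene list over its tested members, with blue (WT) and orange (RepB) points and a short vertical line for the fit of both, and the number of members called higher and lower. The streak list is lowest at -1.62, and the carriers of visceral endoderm (2.69, 9 of 22 members) and the Hox list (2.10, 22 of 35) are highest, over members that could pass the count filter through day 8 alone.

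To see whether these changes belonged to this day rather than to a steady trend, each gene's step from day 7 to day 8 was compared with its mean daily change from day 5 to 7 and from day 8 to 10. This used the 10 libraries of days 5 to 10 and the same test. The step was above that mean for 47 genes (0.337% of 13955) and below it for 161 (1.15%), 1.49% together, with 2699 at an unadjusted p under 0.05. A step above the mean was called for Hba-x, Hbb-bh1, Hbb-y, Pyy, Popdc2 and Ttr, the 6 largest by the naming rule. Pyy differed by 5.48 on the log2 scale (SE 0.43, adjusted p = 0.000262), Hba-x by 6.98 (SE 0.88, adjusted p = 0.00521) and Ttr by 3.54 (SE 0.45, adjusted p = 0.00528). Hba-x was between 0.763 and 2.87 CPM at days 5 to 7 in both lines, and by day 10 had reached 202 and 333 CPM. After day 8 it was thus higher again in WT and not in RepB. The 47 included 3 of 15 cardiac transcription factors, Nkx2-5, Mef2c and Smyd1, while 1 member of that list was among the 161 below the mean.

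The 6 largest steps below the mean were those of Plxna4, Kdr, Clk2-scamp3, Asb4, Lhx1 and Ankrd33b. Kdr had climbed from 2.48 and 4.15 CPM (WT, RepB) at day 5 through 72.1 and 72.7 CPM at day 6 to its day 7 level, fell by day 8 and stood at 96.6 and 102 CPM at day 10; the contrast was -3.30 (SE 0.22, adjusted p = 0.000174). Plxna4, a semaphorin co-receptor and a long gene, dipped in the same way, at 78.1 and 72.3 CPM on day 7, 25.1 and 49.5 CPM on day 8 and 263 and 282 CPM on day 10 (contrast -3.46, SE 0.37, adjusted p = 0.00218). Asb4, a ubiquitin ligase adaptor of vessel precursors, had 57.7 and 77.5 CPM, then 33.5 and 33.1 CPM, then 57.2 and 52.3 CPM (contrast -2.90, SE 0.25, adjusted p = 0.000496). Each of these genes was lowest at day 8 among days 7, 8 and 10 in both lines. T, Eomes, Mixl1 and Mesp1, in contrast, were not called here, with adjusted p from 0.132 to 0.24. Of 19 streak list genes 3 were below the mean, and of 27 Wnt list genes 6 were, against 1.15% of all genes tested here. Neither list had a gene above it. Without WT day 7 the counts above and below were 1 and 3, without RepB day 7 4 and 22, without WT day 8 211 and 207, and without RepB day 8 1060 and 1410. Kdr, Asb4 and Pyy remained called with each of the 4 libraries left out, whereas without WT day 7 the other 9 of the 12 genes were not called, with adjusted p of 0.11 for Hba-x, 0.103 for Ttr and 0.0532 for Plxna4. Without RepB day 7 the calls of Hba-x (0.0807), Hbb-bh1, Hbb-y, Popdc2, Clk2-scamp3 and Ankrd33b were lost, and limma-voom did not call Hbb-bh1 (0.0615) or Hbb-y (0.0721).

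Of 459 tested X-linked genes 32 were higher (6.97%) and 31 lower (6.75%), 13.7% in all. Over all genes 8.49% were called, and over autosomal genes 8.29%; no test of this difference was made. The median log2 change was -0.01 for X-linked and 0.01 for autosomal genes. Xist went from 1374 and 1608 CPM in WT and RepB to 819 and 1309 CPM (log2 change -0.50, SE 0.20, adjusted p = 0.146) and was not called. Its days did not overlap, but it is a long gene and the larger drop was in WT. The log2 change was -0.20 without WT day 8, 0.01 with the length trend removed, and -0.77 without RepB day 8, where it was called lower (adjusted p = 0.00318). Tsix, the antisense gene, had 15.8 and 8.81 CPM and then 15.1 and 7.23 CPM (log2 change -0.14, adjusted p = 0.815). Whether counting used the strand is not given in the sources used here, so reads of Xist and its antisense partner may not be separable. Of 13 genes known to escape silencing Usp9x and Shroom4 fell; both calls were lost without either day 7 library. Usp9x is a long gene and went from 351 and 565 CPM to 126 and 307 CPM.

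Allelic counts gave a readout that the totals do not hold. For 270 X-linked genes with at least 10 allelic counts in each library, the median share of cas counts went from 91.1% to 92.5% in WT and from 71.8% to 75% in RepB. The genes at 90% or more rose in number from 54.1% to 64.8% of the set in WT and from 11.5% to 19.6% in RepB. Gene by gene the cas share was higher at day 8 for 161 genes and lower for 104 in WT, with a median change of 1.26 percentage points, and for 163 and 104 in RepB, with a median change of 2.86 points. The pooled share moved from 86.58% (95% exact Clopper-Pearson interval 86.3 to 86.85%) to 85.22% (84.87 to 85.57%) in WT, downward, and from 68.27% (67.71 to 68.82%) to 70.79% (70.18 to 71.38%) in RepB, upward. These intervals cover counting error only. The gap between the lines was thus far larger than the step of a day in either. For 8555 autosomal genes the median cas share was between 1.6 and 2.2% in the 4 libraries and the upper quartile between 44.5 and 46.3%, so many autosomal genes gave almost no cas counts.

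**Figure D5:**
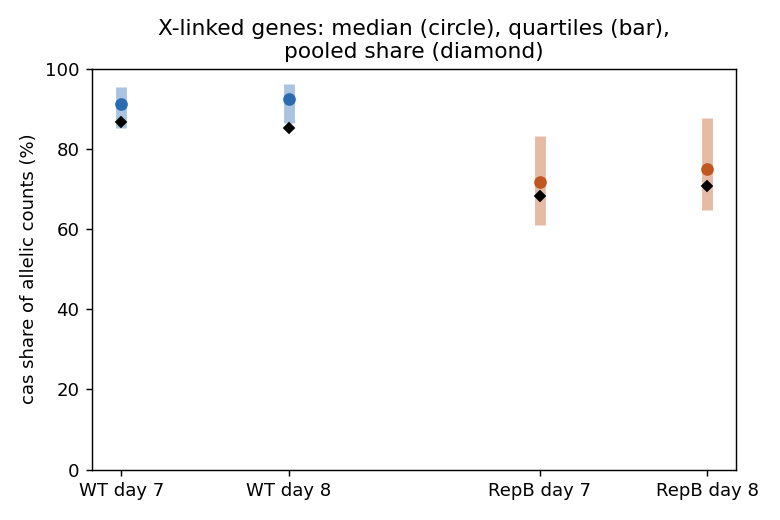
Share of cas counts among allelic counts (percent, axis from 0 to 100) over 270 X-linked genes in the 4 libraries, with the median as a circle, the quartiles as a bar and the pooled share as a diamond. The WT medians are 91.1% and 92.5% at days 7 and 8 and the RepB medians 71.8% and 75%.

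In a test of the cas share shared by both lines, 17 of 4752 genes were called (0.358%), 11 higher and 6 lower at day 8, with 286 at an unadjusted p under 0.05. Among 250 X-linked genes 2 were called (0.8%), both lower, and 26 had an unadjusted p under 0.05. Of the X-linked genes 64.4% had a log2 odds ratio above 0, against 50.3% of the others. The 2 calls were Rps4x and Rpl39, ribosomal protein genes with near-identical copies, so their shares are uncertain. The falls lay mostly in WT, from 17.9% to 4.1% for Rps4x and from 44% to 6.5% for Rpl39. In RepB Rps4x went from 2.7% to 1.9%, and Rpl39 went up from 20.8% to 50% on 24 and 2 allelic counts. Xist itself came mostly from the mus allele, with a cas share of 2.6% and 4.3% at days 7 and 8 in WT and 13.6% and 12.3% in RepB (adjusted p = 0.951).

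Among 4502 autosomal genes 15 were called (0.333%). Ordered by log2 odds, the largest rises were those of Rps18, Akap1, Nelfa, Fau, Npm3 and Lgals1, and the largest falls those of Rmnd5a, Casc4, Rpl37 and Gas6. In percentage points other calls moved more in both lines than Rps18 and Akap1 did, such as Kars, a lysyl-tRNA synthetase singled out after its values were seen, from 10.5% and 9.7% to 27.5% and 32.4%. Gas6, a growth factor for receptor tyrosine kinases, went from 77.3% and 79% in WT and RepB to 63.6% and 60.3% (log2 odds -1.11, SE 0.24, adjusted p = 0.00592). Both lines moved by like amounts. Rpl37, also lower in total count, went from 80.9% and 83.4% to 57.3% and 53.1% (log2 odds -1.85, SE 0.25, adjusted p = 6.63e-08). Rps18 and Akap1 had no cas counts at day 7 and shares of 0 to 8.2% at day 8, and the changes of Nelfa, Npm3 and Lgals1 lay mostly in 1 line. For Fau the RepB shares rest on 6 and 11 allelic counts.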

How the data were processed

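PolyA RNA of mouse ES cells was sequenced in 12 libraries, of which 4 (WT and RepB, days 7 and 8) were compared. The deposited table holds counts per gene as the authors made them, without normalization, as totals and as cas and mus allelic counts; per the submitters' processing notes mm9, Novoalign, TopHat, SAMtools, bedtools and featureCounts were used, without versions or roles. Exon length, in bases, was taken as the authors list it. Of the count columns 6 matched no RNA sample and were not used. In R 4.3.3, edgeR 4.0.16 fitted day with line as block (1 residual degree of freedom, TMM, filterByExpr, quasi-likelihood F test, Benjamini-Hochberg over all genes tested, threshold 0.05). The fit had a common dispersion of 0.0226 (coefficient of variation between libraries 15%). SE is the absolute log2 change divided by the square root of F. Changes within a line use log2 of CPM + 0.5. The interval contrast used 10 libraries, and the cas share was tested on allelic counts of genes with a mean of at least 20 in edgeR with library as block. Scripts were tested on simulated counts. Named genes were the 15 largest called rises and 15 largest falls with mean log2 CPM of at least 2, the called members and up to 3 abundant members of 37 lists, 6 genes each way for the interval contrast and for the cas share, and Xist, Tsix, Pou5f1 and Nanog. A few list members are counted but not reported here by name. Lists and members were chosen with earlier results of these data known. Alternatives were DESeq2 1.42.0, limma 3.58.1 (voom), other scaling, filters, thinning, no line block, single libraries left out and, chosen after seeing the data, removal of each library's length trend. The line is the pairing in the main fit.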

Additional observations from a re-analysis of the deposited data

Results flagged for a closer look

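In 14 of the named genes and list members reported here, the lines changed in opposite directions, each beyond its own counting error. They were picked by that bound, which abundant genes pass on small changes. The lines changed in the same direction for 65.7% of all genes tested, and how many of all genes would meet the bound was not counted. With 1 library per line and day the difference was not tested. The log2 changes of CPM + 0.5 from day 7 to day 8 in WT and RepB were 0.32 and -0.17 for Aldoa, 0.22 and -0.31 for Pkm (glycolysis), 0.13 and -0.16 for Atp5a1 and 0.21 and -0.09 for Atp5b (ATP synthase). Among genes of mesenchyme and adhesion they were -0.12 and 0.72 for Cdh11, -0.41 and 0.77 for Pdgfra, -0.12 and 0.75 for Vcan and -0.52 and 0.28 for Ncam1. In signalling and stress genes they were 0.17 and -0.91 for Hes1, -0.39 and 0.20 for Il6st, 0.50 and -0.23 for Cdkn1a and 0.20 and -0.16 for Cyr61. The others were Dppa3 (0.43 and -0.56) and Krt19 (0.43 and -0.28). No gene of the 14 was called in the fit of both lines, and the length relation of WT day 8 given in the report bears on the WT values.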

How the results depend on the processing

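Of the 190 named genes called, 35 were called in every alternative that gave a value for them, among them Acta2, Hba-x, Hbb-bh1, Kdr, Lhx1, Pyy, Tnnt2 and Ttr, and none changed direction. Genes higher and lower at day 8, 531 and 552, were 242 and 190 by DESeq2, 147 and 72 with no line block (no replicate block, so WT and RepB unpaired) and 939 and 916 with 10 libraries; 912 were lower with library totals and 836 with at least 10 counts in each library. With the length trend removed, chosen after seeing the data, they were 1100 and 1016, and 1036 of the 1083 calls remained. Leaving out 1 library gave 105 to 1693 higher and 71 to 1704 lower (225 and 204 without RepB day 7, 923 higher without WT day 8). Distinct list members called, 173, were 100 by DESeq2, 49 with no line block, 267 without the length trend and 39 to 252 with 1 library left out (84 without RepB day 7). Steps above and below the mean daily change, 47 and 161, were 228 and 443 with no filter, 82 and 266 by voom, and 1 to 1060 and 3 to 1410 with 1 library left out. Fisher's exact test on the cas share of single lines called 57 higher and 53 lower in WT and 13 lower in RepB, against 11 and 6. With at least 30 allelic counts the median X-linked cas shares were 90.5% (WT day 7), 70.4% (RepB day 7), 91.7% (WT day 8) and 73.7% (RepB day 8). The cause was not tested for any of these. The 2 lines are not replicate cultures, RepB day 8 has the fewest counts, and genes of a few CPM rest on few counts.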
